A study of Mus musculus with 16 samples.

Results

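The genes described here are 10 transcriptional targets of the tumour suppressor p53: Mdm2, Ccng1, Gadd45a, Trp53inp1, Sesn1, Btg2, Zmat3, Phlda3, Perp and Aen. They were taken by gene symbol from 19938 genes measured on 16 Affymetrix arrays of total RNA, and each had 1 probe set with that single symbol. The samples were cultures of mouse embryonic fibroblasts (MEFs), fibroblasts being a cell type of connective tissue. Plates fell into 4 groups of 4, each plate giving 1 array: ATF5-KD cells, which stably express a short hairpin RNA against the transcription factor Atf5, with 1 µM MG132 for 8 h, ATF5-KD cells with vehicle (DMSO) for 8 h, WT cells, which carry a scramble short hairpin RNA, with 1 µM MG132 for 8 h, and WT cells with vehicle for 8 h. All groups thus carried a short hairpin RNA, and the labels name neither the number of clones behind each line nor separate cultures or days for the plates, so the p-values rest on a spread between plates that may be technical. By its title the study looked for genes whose answer to proteasome inhibition depends on ATF5.

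p53 is a transcription factor that the ubiquitin ligase MDM2 normally marks for destruction by the proteasome. Blocking the proteasome with a peptide aldehyde such as MG132 lets p53 protein accumulate, and DNA damage does so through kinases that free p53 from MDM2. Its targets include its own inhibitor (Mdm2), genes that slow the cell cycle (Ccng1, Gadd45a, Btg2), genes that adjust growth and autophagy under stress (Sesn1, Trp53inp1), and genes tied to cell death or survival signalling (Perp, Phlda3, Aen, Zmat3). Gadd45a is also known to answer stress by routes that do not need p53. p53 protein was not measured, and Trp53 itself, like Cdkn1a, had no probe set with a single symbol and was not analysed here. The sample titles do not state whether p53 is intact in either line.

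Promoters of 7 of the 10 genes were found in RefSeq (build GRCm38.p6), as 9 windows that run from 250 bases before to 50 bases after a transcription start. The 5 windows below are shown because they hold a match to the decamer half-site of the p53 consensus. Each is printed 5′ to 3′ on the gene's own strand, with capitals marking the half-site and, in Ccng1, the longer match described beneath.
Mdm2 (chr10:117710709-117711008, minus strand): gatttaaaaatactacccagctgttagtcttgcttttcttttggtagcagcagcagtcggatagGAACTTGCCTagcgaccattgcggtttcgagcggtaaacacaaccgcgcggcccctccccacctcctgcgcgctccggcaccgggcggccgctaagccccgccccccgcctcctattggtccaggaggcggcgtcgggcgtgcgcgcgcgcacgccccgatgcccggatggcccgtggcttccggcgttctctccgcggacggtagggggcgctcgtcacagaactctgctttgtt
Ccng1 (chr11:40755237-40755536, minus strand): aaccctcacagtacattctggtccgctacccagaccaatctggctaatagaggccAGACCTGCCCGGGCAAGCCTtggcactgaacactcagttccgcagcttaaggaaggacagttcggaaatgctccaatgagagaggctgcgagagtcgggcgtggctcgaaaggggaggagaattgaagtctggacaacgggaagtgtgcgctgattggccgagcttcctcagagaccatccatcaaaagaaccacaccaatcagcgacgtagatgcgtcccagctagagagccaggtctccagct
Gadd45a (chr6:67037358-67037657, minus strand): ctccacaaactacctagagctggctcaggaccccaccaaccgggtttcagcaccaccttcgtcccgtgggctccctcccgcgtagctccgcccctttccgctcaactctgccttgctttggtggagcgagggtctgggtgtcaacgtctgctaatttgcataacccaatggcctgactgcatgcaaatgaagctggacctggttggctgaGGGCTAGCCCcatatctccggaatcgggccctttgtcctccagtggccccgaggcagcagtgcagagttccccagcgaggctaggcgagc
Sesn1, second start (chr10:41887189-41887488, plus strand): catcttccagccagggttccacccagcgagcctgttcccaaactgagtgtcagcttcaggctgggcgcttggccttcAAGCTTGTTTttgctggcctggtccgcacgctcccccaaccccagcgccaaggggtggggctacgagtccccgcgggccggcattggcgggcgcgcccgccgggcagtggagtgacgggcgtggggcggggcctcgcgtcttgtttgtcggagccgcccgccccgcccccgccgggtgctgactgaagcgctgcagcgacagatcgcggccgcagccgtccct
Aen, first start (chr7:78895677-78895976, plus strand): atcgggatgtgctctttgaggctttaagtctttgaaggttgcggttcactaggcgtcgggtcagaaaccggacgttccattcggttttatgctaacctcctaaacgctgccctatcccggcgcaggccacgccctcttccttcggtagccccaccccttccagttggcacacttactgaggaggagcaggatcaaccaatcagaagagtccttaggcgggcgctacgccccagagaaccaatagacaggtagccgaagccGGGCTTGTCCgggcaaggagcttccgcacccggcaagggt

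A half-site stood in 6 of the 9 windows, 2 of them overlapping windows of Aen that share the same match, against 8.36% of all 32851 RefSeq promoter windows of this length. It lay at -186 to -177 in Mdm2 (GAACTTGCCT), -185 to -176 in Ccng1 (GGGCAAGCCT), -40 to -31 in Gadd45a (GGGCTAGCCC), -173 to -164 in Sesn1 (AAGCTTGTTT) and 10 to 19 in Aen (GGGCTTGTCC), counted from 0 at the first base after the 250 upstream ones. A pair of half-sites with a spacer of up to 13 bases was matched in 0 of the 9 windows and in 0.0731% of all windows. Allowing 1 letter to differ and no spacer, a search added after the first was seen, matched the Ccng1 window at -195 to -176 (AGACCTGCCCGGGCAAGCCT) and 0.0883% of all windows. The binding site of ATF4 and C/EBP factors, searched as TGATGNAA, was matched in 0 of the 9 windows and 3.97% of all, and the AP-1 site, searched as TGANTCA, in 0 of the 9 and 7.81% of all. Both strands were read, and no matches of different motifs overlapped in these windows apart from the Ccng1 half-site inside its longer match. Btg2, Phlda3 and the first start of Sesn1 had no half-site in these windows. Counted by gene, 9.55% of 27025 genes had a half-site in such a window. The genes described here were taken as p53 targets, so their share is a description and was not tested. The known p53 sites of some of these genes lie in introns, outside the windows searched.

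Some facts of the whole series bear on these genes. The medians of the arrays (log2) ran from 7.71 to 7.82, and precision is limited by how few arrays there were. Atf5, the gene targeted by the hairpin, was lower in ATF5-KD cells by a log2 difference of -0.31 ± 0.05 (SE) with MG132 and of -0.22 ± 0.05 with vehicle (limma adjusted p = 0.000148 and 0.00321), so the knockdown at the RNA level was partial on this probe set. Of 10 fibroblast markers, 8 in ATF5-KD and 7 in WT groups read above the median of all genes, with Vim highest and Lum lowest (4.69 to 4.85). The fibroblast list's mean level was 9.87 to 9.96 with MG132 and 10.08 to 10.14 with vehicle in ATF5-KD arrays, and 9.69 to 9.71 with MG132 and 9.94 to 9.97 with vehicle in WT arrays. The mean of 5 smooth muscle markers was 9.03 to 9.19 in ATF5-KD and 9.41 to 9.57 in WT arrays. Of these 5, 0 were higher and 2 lower in ATF5-KD cells with MG132 (limma, false discovery rate 5%). With vehicle 1 was higher and 2 were lower. Of the 10 fibroblast markers 5 were higher and 1 lower with MG132, and 4 higher and 2 lower with vehicle. Of all genes 17.7% were higher and 20.3% lower with MG132, and 21.5% and 17.9% with vehicle. Macrophage markers (7) averaged 6.86 to 6.93 with MG132 and 6.71 to 6.85 with vehicle in ATF5-KD arrays. In WT arrays they averaged 6.69 to 6.74 and 6.58 to 6.67. Means of 5 endothelial markers were 6.67 to 6.70 with MG132 and 6.49 to 6.67 with vehicle in ATF5-KD arrays. In WT arrays they were 6.74 to 6.85 and 6.65 to 6.72. The smooth muscle means thus separated the lines, and the endothelial means separated the lines with MG132 and the treatments in WT cells. Fibroblast and macrophage means separated both the treatments within each line and the lines within each treatment. The part of all these markers in the results that follow was not tested. Adgre1 and Emcn were the lowest macrophage and endothelial markers, and no marker was at 0, a level that arrays do not give. In bulk RNA, fewer cells of a type and less RNA per cell cannot be told apart.

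Inside the groups the arrays were spread along a gradient, the first principal component of their deviations from the group means, which held 37.1% of the within-group variance. The sign of such a component is arbitrary, and it was set so that the median correlation of the fibroblast markers with it was not negative. Low and high are thus labels and do not rank array quality. WT MG132 array 4 and ATF5-KD vehicle array 1 stood farthest toward its low end, followed by WT vehicle arrays 4 and 1. Over the 16 within-group deviations Sesn1 followed the gradient with r = 0.82, Ccng1 with 0.65, Trp53inp1 with 0.59, Btg2 with 0.53, Mdm2 with 0.48 and Zmat3 with 0.44, while Perp (0.18), Aen (-0.04), Gadd45a (-0.11) and Phlda3 (-0.24) did so less, and the median of all genes was -0.17. These arrays share the signals that define the gradient, so the values are a description. Results are given for all 16 arrays, and where leaving out the 4 lowest arrays changed a call this is said beside the result.

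The first question is what proteasome inhibition did to p53 target RNAs. In ATF5-KD cells 5 of the 10 genes rose with MG132 and 4 fell (limma, false discovery rate 5%), where 40.7% of all genes changed, 16.4% higher and 24.3% lower. In WT cells 4 rose and 2 fell, where 35.8% of all genes changed, 16.8% higher and 19% lower. The arrays of the 2 treatments did not overlap in any of these calls, and 15.1% of all genes lay wholly higher and 23.4% wholly lower with MG132 in ATF5-KD cells, against 15% and 17.9% in WT cells. With each array centred on its median, all genes called split into 1833 higher and 5795 lower in ATF5-KD cells (3276 and 4848 without centring) and 2150 and 4624 in WT cells (3341 and 3796 without centring). The balance in ATF5-KD cells turned the other way without the 4 lowest arrays of the gradient (5498 higher and 5085 lower) and with array weights (5425 and 5264). The genes did not move as a block: Gadd45a, Trp53inp1, Sesn1 and Mdm2 rose in both lines, and Phlda3 and Zmat3 fell in both. The median log2 difference of the 10 was 0.11 in ATF5-KD cells and 0.05 in WT cells, against 0.03 and 0.03 over all genes.

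**Figure D1:**
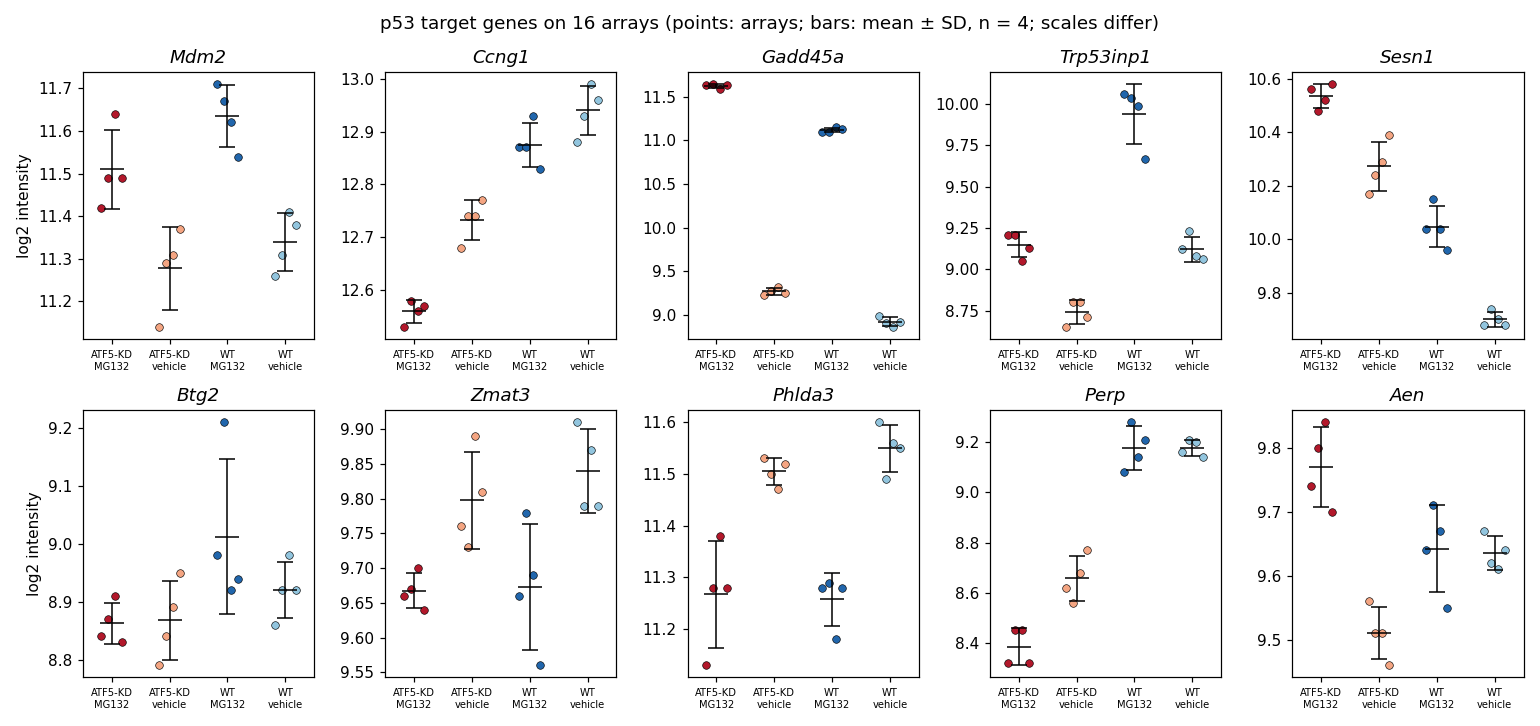
Log2 intensity of each of the 10 p53 target genes on every array, by group (ATF5-KD with MG132, ATF5-KD with vehicle, WT with MG132, WT with vehicle), with points for arrays and bars for the mean ± SD of 4 arrays. The scale differs between panels. Gadd45a spans the widest range, with MG132 arrays at 11.09 to 11.64 and vehicle arrays at 8.86 to 9.32.

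Mdm2, the ligase that keeps p53 in check and is itself induced by p53, rose moderately. In ATF5-KD cells it read 11.42, 11.49, 11.64 and 11.49 with MG132, against 11.14, 11.29, 11.31 and 11.37 with vehicle. In WT cells it read 11.71, 11.67, 11.62 and 11.54 with MG132, against 11.26, 11.31, 11.41 and 11.38 with vehicle. The MG132 arrays lay above the vehicle arrays in both lines, and the closest pair, 11.42 and 11.37 in ATF5-KD cells, was nearer than the spread inside either group. The log2 difference was 0.23 ± 0.06 in ATF5-KD cells (1.17-fold, limma adjusted p = 0.00304) and 0.29 ± 0.06 in WT cells (1.23-fold, limma adjusted p = 0.000457).

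Among the genes of growth arrest, Gadd45a, which binds PCNA and stress kinases, had by far the greatest change. It read 11.63, 11.64, 11.59 and 11.63 with MG132 in ATF5-KD cells, against 9.23, 9.27, 9.32 and 9.25 with vehicle. WT cells gave 11.09, 11.10, 11.15 and 11.13 with MG132, against 8.99, 8.91, 8.86 and 8.92 with vehicle. The lowest MG132 array, at 11.09, stood far above the highest vehicle array, at 9.32. The rise was 5.12-fold in ATF5-KD cells (log2 difference 2.35 ± 0.03) and 4.59-fold in WT cells (2.20 ± 0.03), greater in size than that of 99.99% and 99.96% of all genes (limma adjusted p = 3.54e-17 and 5.39e-17). With 4 against 4 arrays without overlap, an exact two-sided permutation test gives p = 0.0286, the smallest it can give.

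Ccng1, which encodes cyclin G1, a partner of phosphatase subunits that act on MDM2, did not rise in either line. It read 12.53, 12.58, 12.56 and 12.57 with MG132 in ATF5-KD cells, against 12.68, 12.74, 12.74 and 12.77 with vehicle. The corresponding WT values were 12.87, 12.87, 12.93 and 12.83 with MG132, against 12.88, 12.93, 12.99 and 12.96 with vehicle. The ATF5-KD groups did not overlap and the gene fell there (-0.17 ± 0.03, limma adjusted p = 0.000471). The WT groups overlapped, and the difference of -0.07 ± 0.03 missed the threshold (limma adjusted p = 0.159), with a 95% interval of -0.14 to 0.01; with each array centred on its median it was -0.12 and passed (limma adjusted p = 0.0417). The difference of the 2 responses also missed the threshold, as given further on.

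Btg2, an antiproliferative gene whose product helps shorten the tails of mRNAs, missed the threshold for MG132 in both lines. Its arrays ran from 8.83 to 8.91 with MG132 and 8.79 to 8.95 with vehicle in ATF5-KD cells, and from 8.92 to 9.21 with MG132 and 8.86 to 8.98 with vehicle in WT cells. WT MG132 array 2, at 9.21, stood above the other 15 arrays. The log2 difference was -0.01 ± 0.06 in ATF5-KD cells (95% interval -0.12 to 0.11) and 0.09 ± 0.06 in WT cells (-0.03 to 0.21).

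The genes of stress metabolism rose. Trp53inp1, which encodes a nuclear protein that promotes p53 activity and autophagy, read 9.21, 9.21, 9.05 and 9.13 with MG132 in ATF5-KD cells, against 8.65, 8.80, 8.80 and 8.71 with vehicle. It read 10.06, 10.04, 9.99 and 9.67 with MG132 in WT cells, against 9.12, 9.23, 9.08 and 9.06 with vehicle. WT MG132 array 4, lowest on the gradient, was the low one of its group and still above every vehicle array. The rise was 1.33-fold in ATF5-KD cells (0.41 ± 0.07, limma adjusted p = 0.000181) and 1.76-fold in WT cells (0.82 ± 0.07, limma adjusted p = 9.87e-08), or 0.91 in WT cells without that array.

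Sesn1, a sestrin that restrains the growth kinase complex mTORC1, rose in both lines. It read 10.56, 10.48, 10.52 and 10.58 with MG132 in ATF5-KD cells, against 10.17, 10.24, 10.29 and 10.39 with vehicle. WT cells gave 10.04, 10.15, 10.04 and 9.96 with MG132, against 9.68, 9.74, 9.70 and 9.68 with vehicle. The treatments did not overlap in either line. The log2 differences were 0.26 ± 0.05 in ATF5-KD cells and 0.35 ± 0.05 in WT cells (limma adjusted p = 0.000207 and 1.31e-05).

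The genes of death and survival signalling took separate ways. Phlda3, which encodes a pleckstrin homology domain protein that holds back the survival kinase AKT, fell in both lines. It read 11.13, 11.28, 11.38 and 11.28 with MG132 in ATF5-KD cells, against 11.53, 11.50, 11.47 and 11.52 with vehicle. In WT cells these were 11.28, 11.29, 11.18 and 11.28 with MG132, against 11.60, 11.49, 11.56 and 11.55 with vehicle. Each MG132 array lay below each vehicle array of its line, by -0.24 ± 0.05 in ATF5-KD cells and -0.29 ± 0.05 in WT cells on average (limma adjusted p = 0.000407 and 6.01e-05).

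Zmat3, a zinc finger protein that binds RNA, fell less. Its arrays ran from 9.64 to 9.70 with MG132 and 9.73 to 9.89 with vehicle in ATF5-KD cells, and from 9.56 to 9.78 with MG132 and 9.79 to 9.91 with vehicle in WT cells. The log2 differences were -0.13 ± 0.05 and -0.17 ± 0.05 (limma adjusted p = 0.0361 and 0.00944). The ATF5-KD call was lost when the arrays were quantile normalized again (-0.05, limma adjusted p = 0.441) and without any of ATF5-KD vehicle arrays 3 and 4 or ATF5-KD MG132 arrays 1, 2 and 4 (0.0656 to 0.132). The WT call was lost without the 4 lowest arrays of the gradient (-0.12, limma adjusted p = 0.108).

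Perp, a membrane protein of desmosomes that p53 induces during apoptosis, read 8.32, 8.45, 8.45 and 8.32 with MG132 in ATF5-KD cells, against 8.62, 8.56, 8.68 and 8.77 with vehicle. WT cells gave 9.08, 9.28, 9.14 and 9.21 with MG132, against 9.16, 9.21, 9.20 and 9.14 with vehicle. It fell in ATF5-KD cells, where the groups did not overlap (-0.27 ± 0.05, limma adjusted p = 0.000347). In WT cells the means were the same to the second decimal (0.00 ± 0.05, 95% interval -0.11 to 0.11).

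Aen, a nuclease of the apoptotic response, read 9.74, 9.80, 9.84 and 9.70 with MG132 in ATF5-KD cells, against 9.56, 9.51, 9.51 and 9.46 with vehicle. In WT cells it read 9.64, 9.71, 9.67 and 9.55 with MG132, against 9.67, 9.62, 9.61 and 9.64 with vehicle. It rose in ATF5-KD cells, where the groups did not overlap (0.26 ± 0.04, limma adjusted p = 4.57e-05). The WT groups overlapped, with a difference of 0.01 ± 0.04 (95% interval -0.08 to 0.09).

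**Figure D2:**
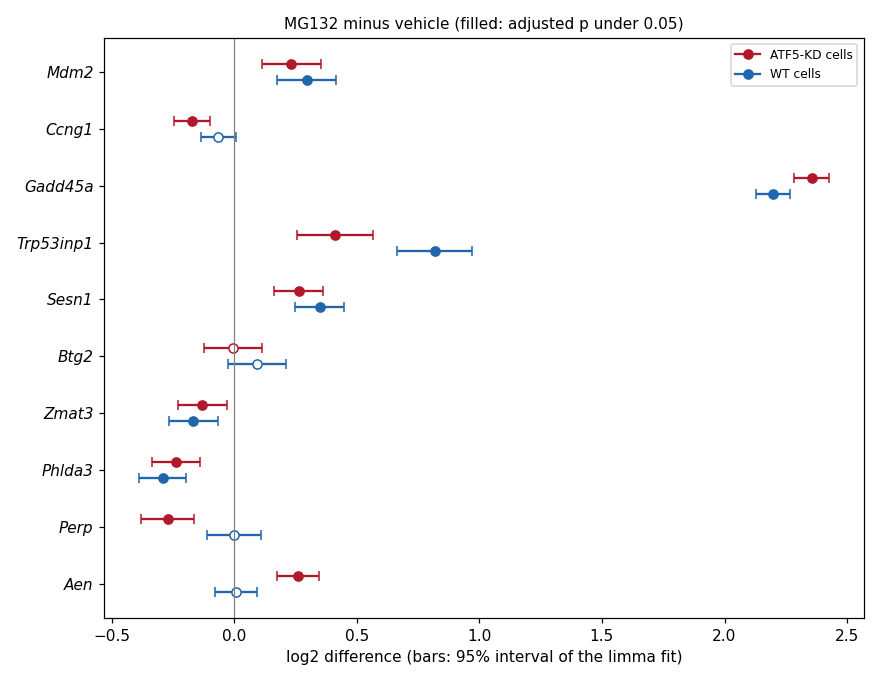
Log2 difference of MG132 minus vehicle for each gene in ATF5-KD cells (red) and WT cells (blue), with the 95% interval of the limma fit over 4 arrays per group. Filled points passed an adjusted p of 0.05. Gadd45a stands at 2.35 and 2.20, and the other 9 genes lie between -0.29 and 0.82.

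The second question is how the lines differed at a given treatment. With MG132, 3 of the 10 genes were higher in ATF5-KD than in WT cells and 4 were lower (limma), where 38.1% of all genes differed, 17.7% higher and 20.3% lower. With vehicle, 2 were higher and 4 lower, where 39.4% of all genes differed, 21.5% higher and 17.9% lower. Arrays of the lines did not overlap for 2 higher and 4 lower genes with each treatment, where 16.6% of all genes lay wholly higher and 18.1% wholly lower with MG132, and 21.4% and 17.3% with vehicle. The comparisons of treatment and of line share these arrays. Perp, Trp53inp1 and Ccng1 were lower in ATF5-KD cells, and Sesn1 and Gadd45a higher, under both treatments.

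Perp and Trp53inp1 had the widest gaps, both under MG132. Perp was 1.73-fold lower in ATF5-KD than in WT cells with MG132 (-0.79 ± 0.05, limma adjusted p = 1.45e-09) and 1.43-fold lower with vehicle (-0.52 ± 0.05, limma adjusted p = 2.56e-07). The highest ATF5-KD array, at 8.77, was below the lowest WT array, at 9.08. Perp is a gene of epithelia as well, and of the 7 epithelial markers 1 was higher and 2 lower in ATF5-KD cells with MG132, and 1 higher and 0 lower with vehicle. Their mean level was 7.42 to 7.58 in ATF5-KD and 7.32 to 7.54 in WT arrays with MG132, and 7.38 to 7.51 in ATF5-KD and 7.24 to 7.37 in WT arrays with vehicle; their part in the result was not tested.

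Trp53inp1 was lower in ATF5-KD cells by -0.79 ± 0.07 with MG132 and by -0.38 ± 0.07 with vehicle (limma adjusted p = 1.15e-07 and 0.000335). The group of ATF5-KD cells with MG132, at 9.15 ± 0.08 (SD, n = 4), reached about the level of WT cells with vehicle, at 9.12 ± 0.08 (SD, n = 4), and these neighbours in the order of the groups overlapped. Ccng1 was lower as well, by -0.32 ± 0.03 with MG132 and -0.21 ± 0.03 with vehicle (limma adjusted p = 7.42e-07 and 7.33e-05). Its group means ran from 12.56 ± 0.02 in ATF5-KD cells with MG132 through 12.73 ± 0.04 in ATF5-KD cells with vehicle and 12.87 ± 0.04 in WT cells with MG132 to 12.94 ± 0.05 in WT cells with vehicle (SD, n = 4 each), and of these neighbours the WT groups overlapped.

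Sesn1 was higher in ATF5-KD cells by 0.49 ± 0.05 with MG132 and by 0.57 ± 0.05 with vehicle (limma adjusted p = 2.14e-07 and 2.44e-08). Its 4 groups did not overlap and stood, high to low, as ATF5-KD MG132, ATF5-KD vehicle, WT MG132 and WT vehicle, so ATF5-KD cells with vehicle read above WT cells with MG132. Gadd45a was higher in ATF5-KD cells by 0.50 ± 0.03 with MG132 and by 0.35 ± 0.03 with vehicle (limma adjusted p = 1.86e-09 and 1.79e-07). Its 4 groups were also separate, with the treatments far apart and the lines close.

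Aen was higher in ATF5-KD cells with MG132 (0.13 ± 0.04, limma adjusted p = 0.0178, with overlapping arrays and an exact permutation p of 0.0571) and lower with vehicle (-0.12 ± 0.04, limma adjusted p = 0.0191, exact permutation p = 0.0286). Both calls were close to the threshold: without the 4 lowest arrays of the gradient they were 0.0659 and 0.0587. The MG132 call was also lost without any of WT MG132 array 4 and ATF5-KD MG132 arrays 2 and 3 (0.0518 to 0.0651), and the vehicle call without WT vehicle array 1 or ATF5-KD vehicle array 4 (0.0539 and 0.064). Median centring ended the vehicle call as well (-0.10, limma adjusted p = 0.1), and fitting only the groups compared ended the MG132 call (0.0654).

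Btg2 was lower in ATF5-KD cells with MG132 by -0.15 ± 0.06 (limma adjusted p = 0.0412), and this call was not firm: without WT MG132 array 2 the difference was -0.08 (limma adjusted p = 0.147). It was lost as well without any 1 of 8 other arrays, ATF5-KD MG132 1, 2 or 4, ATF5-KD vehicle 2 or 3, WT MG132 1 or WT vehicle 2 or 4, with limma adjusted p from 0.0503 to 0.0948. With vehicle the difference was -0.05 ± 0.06 (95% interval -0.17 to 0.06). Mdm2 differed by -0.13 ± 0.06 with MG132 (limma adjusted p = 0.1) and by -0.06 ± 0.06 with vehicle (0.456). The MG132 value of Mdm2 passed without the 4 lowest arrays of the gradient (-0.16, limma adjusted p = 0.0246) and without WT MG132 array 4 (0.0457) or ATF5-KD MG132 array 3 (0.0269). On all 16 arrays it passed with a second quantile normalization (0.0448), a trended robust prior (0.0477) and array weights (0.0154). Under 23 of its 29 alternatives it missed the threshold. Zmat3 and Phlda3 missed the threshold under both treatments, with 95% intervals inside -0.14 to 0.11 for each difference.

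**Figure D3:**
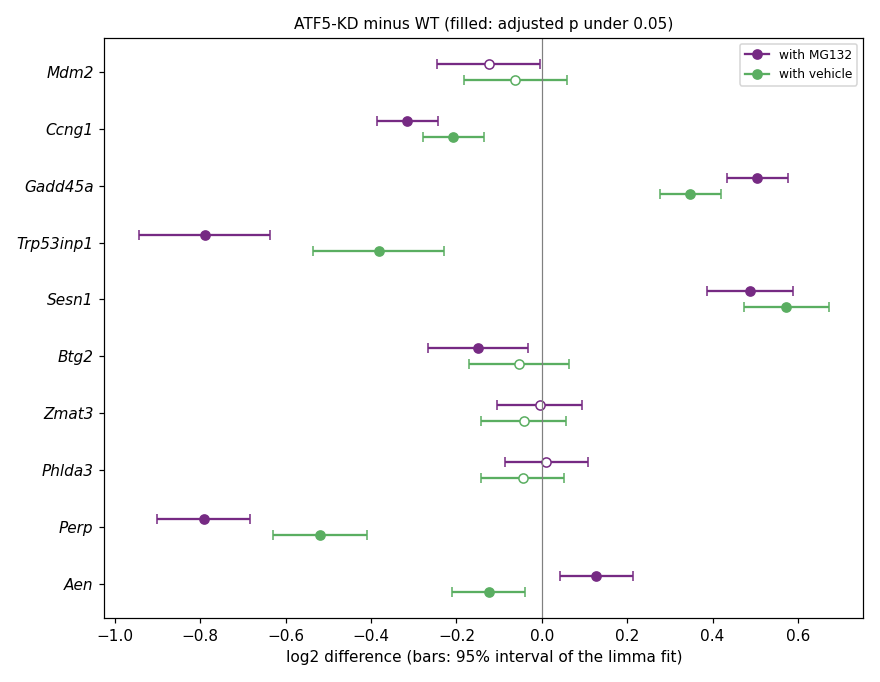
Log2 difference of ATF5-KD minus WT for each gene with MG132 (purple) and with vehicle (green), with the 95% interval of the limma fit over 4 arrays per group. Filled points passed an adjusted p of 0.05. Perp and Trp53inp1 lie farthest to the left with MG132, at -0.79 each, and Sesn1 and Gadd45a to the right at 0.35 to 0.57.

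The third question, the one in the study's title, is whether the MG132 response differed between the lines. The response of ATF5-KD cells minus that of WT cells was tested in the same fit, and 4 of the 10 genes passed, 2 higher and 2 lower, where 14.6% of all genes did, 4.45% higher and 10.1% lower. Trp53inp1 rose less in ATF5-KD cells, by 0.41 against 0.82 in WT cells, a difference of -0.41 ± 0.10 (limma adjusted p = 0.0129). It kept its call under each of the 28 alternatives run for it (-0.53 to -0.37). Perp fell in ATF5-KD cells by 0.27 against a change of 0.00 in WT cells, a difference of -0.27 ± 0.07 (limma adjusted p = 0.0185), and without the 4 lowest arrays of the gradient the difference was -0.25 (limma adjusted p = 0.0979).

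Aen rose in ATF5-KD cells by 0.26 against a change of 0.01 in WT cells, a difference of 0.25 ± 0.06 (limma adjusted p = 0.00632), and kept its call under each of its 28 alternatives (0.22 to 0.32). Gadd45a rose slightly more in ATF5-KD cells, 2.35 against 2.20 in WT cells, a difference of 0.16 ± 0.05 (limma adjusted p = 0.0343). That call was lost without any 1 of 10 arrays, ATF5-KD MG132 1, 2 or 4, ATF5-KD vehicle 1, 2 or 4, WT MG132 1 or 2, or WT vehicle 1 or 4 (0.0563 to 0.0736), and without the 4 lowest arrays of the gradient (0.172). For the other 6 genes the difference missed the threshold. Its 95% interval, not adjusted for the number of genes, was -0.21 to -0.01 for Ccng1 (limma adjusted p = 0.16), -0.23 to 0.06 for Sesn1, -0.23 to 0.11 for Mdm2, -0.26 to 0.07 for Btg2, -0.10 to 0.18 for Zmat3 and -0.08 to 0.19 for Phlda3, so differences of these sizes were not resolved with 4 arrays per group.

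**Figure D4:**
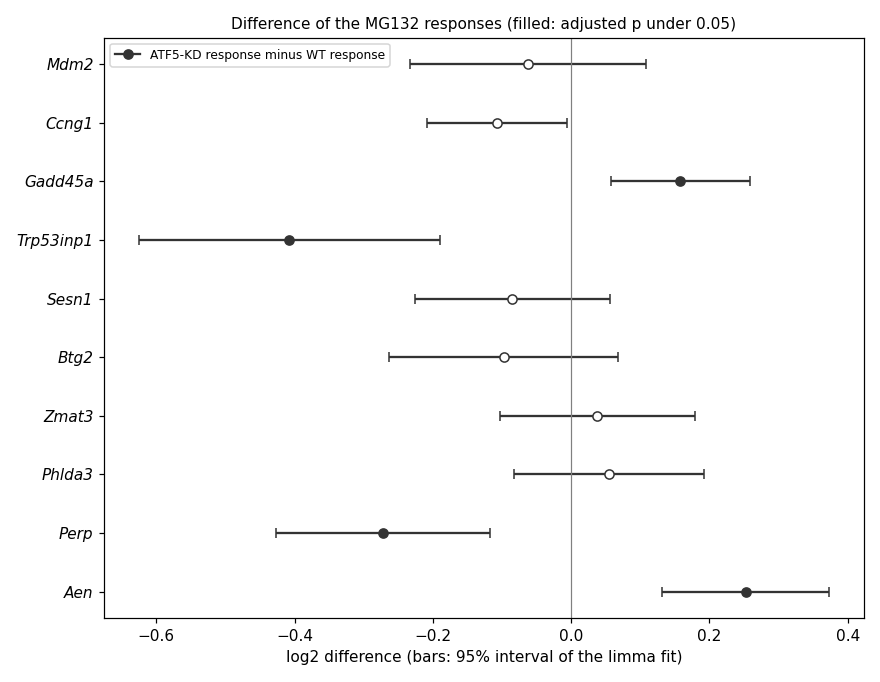
Difference of the MG132 responses (ATF5-KD response minus WT response, log2) for each gene with its 95% interval from the limma fit over 16 arrays. Filled points passed an adjusted p of 0.05. Trp53inp1 (-0.41) and Perp (-0.27) lie to the left of 0 and Aen (0.25) and Gadd45a (0.16) to the right.

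Other genes of the pathway also moved in both directions. Of 33 measured further p53 targets, 10 rose and 12 fell with MG132 in ATF5-KD cells, and 13 rose and 5 fell in WT cells, with medians of -0.03 and 0.03 against 0.03 and 0.03 over all genes. The shares of all genes were the 16.4% higher and 24.3% lower in ATF5-KD cells and 16.8% and 19% in WT cells given above. Sesn2, the sestrin paralog that is also a target of ATF4, rose by 1.08 ± 0.04 in ATF5-KD cells and 1.18 ± 0.04 in WT cells. Tnfrsf10b, a death receptor of the TRAIL ligand, rose by 0.44 ± 0.03 and 0.39 ± 0.03, and the thiamine transporter Slc19a2 by 0.43 ± 0.03 and 0.36 ± 0.03. The ectodysplasin receptor Eda2r rose by 1.30 ± 0.09 in ATF5-KD cells and 0.29 ± 0.09 in WT cells, and the death receptor Fas by 0.87 ± 0.05 and 0.45 ± 0.05. Both were dim in WT cells, where Eda2r averaged 6.86 and Fas 6.575 with vehicle, against array medians of 7.71 to 7.82. Changes of dim probe sets can be compressed. Pmaip1, which encodes the death-promoting protein NOXA, rose by 0.33 ± 0.08 and 0.87 ± 0.08. It was dim with vehicle too, at 7.475 in ATF5-KD cells, where the arrays of the treatments overlapped, and 7.80 in WT cells. The polo-like kinase Plk2 rose by 0.39 ± 0.03 in ATF5-KD cells (-0.04 ± 0.03 in WT cells, limma adjusted p = 0.282), and the cytokine Lif fell by 0.35 ± 0.06 in ATF5-KD cells and 1.05 ± 0.06 in WT cells. Lif averaged 8.04 in ATF5-KD and 8.66 in WT cells with vehicle, and was dim in both with MG132, at 7.69 and 7.60.

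Between the lines, 13 of these 33 were higher and 11 lower in ATF5-KD cells with MG132, and 12 were higher and 10 lower with vehicle, with medians of 0.07 and 0.02. Of all genes 17.7% were higher and 20.3% lower with MG132, and 21.5% and 17.9% with vehicle. The ferrireductase gene Steap3 was higher in ATF5-KD cells by 1.42 ± 0.04 with MG132 and 1.70 ± 0.04 with vehicle, the tetraspanin Cd82 by 1.32 ± 0.05 and 2.07 ± 0.05, the phospholipid transfer protein gene Pltp by 1.52 ± 0.06 and 1.65 ± 0.06, and Fas by 1.51 ± 0.05 and 1.09 ± 0.05. Eda2r was higher by 2.33 ± 0.09 with MG132 and 1.31 ± 0.09 with vehicle. Dram1, a lysosomal regulator of autophagy, was higher by 1.06 ± 0.06 with MG132 and 1.12 ± 0.06 with vehicle. In the difference of the responses 7 passed in each direction (median -0.09, against -0.01 over all genes), where 4.45% of all genes passed upward and 10.1% downward, among them Eda2r (1.02 ± 0.13), Lif (0.71 ± 0.09), Plk2 (0.44 ± 0.04), Plk3 (0.39 ± 0.04), the ephrin receptor gene Epha2 (0.37 ± 0.06) and Cd82 (-0.75 ± 0.07). Lif was lower in ATF5-KD cells with vehicle (-0.62 ± 0.06). With MG132, where it was dim, its lines did not differ past the threshold (0.09 ± 0.06, limma adjusted p = 0.315).

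Of 26 measured regulators of p53, 4 rose and 6 fell with MG132 in ATF5-KD cells, and 8 rose and 3 fell in WT cells. Of all genes, 16.4% rose and 24.3% fell in ATF5-KD cells and 16.8% rose and 19% fell in WT cells, and the medians of the regulators were -0.00 and 0.08. Mdm4, the partner of MDM2 that also inhibits p53, rose by 0.35 ± 0.06 in ATF5-KD cells and 0.43 ± 0.06 in WT cells (limma adjusted p = 6.13e-05 and 7.23e-06), and its lines did not differ past the threshold (limma adjusted p = 0.941 with MG132 and 0.239 with vehicle). The DNA damage kinases Atm and Atr fell by 0.43 ± 0.06 and 0.43 ± 0.05 in ATF5-KD cells, and by 0.38 ± 0.06 and 0.36 ± 0.05 in WT cells. The acetyltransferase gene Kat2b fell by 0.95 ± 0.06 in ATF5-KD cells and 0.97 ± 0.06 in WT cells. The deacetylase Sirt1 had 0.10 ± 0.04 in ATF5-KD cells (limma adjusted p = 0.075) and rose by 0.43 ± 0.04 in WT cells, and its response was lower in ATF5-KD cells by -0.33 ± 0.06 (limma adjusted p = 0.002). Between the lines 6 regulators were higher and 10 lower in ATF5-KD cells with MG132, and 7 higher and 6 lower with vehicle, where 17.7% and 20.3% of all genes, and 21.5% and 17.9%, were higher and lower. Cdkn2a, whose locus encodes the MDM2 inhibitor ARF, was higher by 0.35 ± 0.05 with MG132 and 0.285 ± 0.05 with vehicle. Atm was lower by -0.46 ± 0.06 with MG132 and -0.41 ± 0.06 with vehicle. In the difference of the responses 0 regulators passed upward and 5 downward, where calls over all genes also leaned downward (4.45% upward and 10.1% downward), Ppp1r13b (-0.58 ± 0.11) and Trp53bp1 (-0.20 ± 0.06) among them.

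The paralogs of the 10 genes showed how far relatives differed. Of 19 measured, 8 rose and 6 fell with MG132 in ATF5-KD cells, and 7 rose and 4 fell in WT cells, where 40.7% and 35.8% of all genes changed in either direction. Gadd45g rose by 0.46 ± 0.04 in ATF5-KD cells and fell by 0.11 ± 0.04 in WT cells, and Gadd45b rose by 0.25 ± 0.05 in ATF5-KD cells and 0.27 ± 0.05 in WT cells, all smaller log2 differences than that of Gadd45a. Btg1, unlike Btg2, passed in both lines, with 0.52 ± 0.03 in ATF5-KD and 0.24 ± 0.03 in WT cells. Phlda1 rose by 0.46 ± 0.06 in ATF5-KD cells (-0.09 ± 0.06 in WT cells, limma adjusted p = 0.243). Between the lines 6 were higher and 7 lower in ATF5-KD cells with MG132, and 5 were higher and 5 lower with vehicle, where 38.1% and 39.4% of all genes differed. Ccng2, the second cyclin G gene, was lower in ATF5-KD cells by -1.04 ± 0.08 with MG132 and -1.14 ± 0.08 with vehicle. Phlda2 was lower by -0.87 ± 0.06 and -0.86 ± 0.06, and Trp53inp2 by -0.58 ± 0.05 and -0.245 ± 0.05. Isg20, a nuclease related to Aen, was higher by 0.89 ± 0.04 with MG132 and 1.07 ± 0.04 with vehicle. In the difference of the responses 3 passed upward and 5 downward, against 4.45% and 10.1% of all genes, with Trp53inp2 at -0.34 ± 0.07, Gadd45g at 0.57 ± 0.06 and Phlda1 at 0.55 ± 0.08.

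Among themselves the 10 genes fell into different patterns over the 16 arrays, described by Pearson r with no test, since the group means set most of it. Ccng1 and Perp ran together (r = 0.94), as did Mdm2 and Trp53inp1 (0.81), while Gadd45a ran opposite to Phlda3 (-0.91) and Ccng1 opposite to Sesn1 (-0.91). Inside the groups the last pair had r = 0.39, of the other sign, and Ccng1 and Perp 0.17. The genes most like each member over the 16 arrays were Timp3 (0.99) and Ankrd11 (0.99) for Gadd45a, Caml (0.99) and Ubr2 (0.98) for Trp53inp1, Mtbp (0.99) and Rhbdf2 (0.99) for Sesn1, and Atp2c1 (0.99) and Cfap298 (0.98) for Ccng1. Rabepk and Miip came closest to Perp (0.98 each), Ints4 and Mocs1 to Mdm2 (0.96 each), Plpp2 (0.97) and Aif1l (0.96) to Phlda3, and Cct3 (0.94) and Med22 (0.92) to Aen. Zmat3 (Zbtb7a at 0.91, Tubd1 at 0.90) and Btg2 (Faap24 at 0.90, Eci2 at 0.88) had looser neighbours.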

How the data were processed

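Total RNA of 16 plates was labelled and hybridised to 1 array each. The authors deposited log2 intensities per probe set, with RMA and Partek named in the submitters' processing notes, and no source used here gives versions or settings. RMA makes array distributions alike, which hides a shift shared by most genes, and changes of dim or very bright probe sets can be compressed.

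Gene symbols came from the platform's annotation (21789 of 35556 with 1 symbol, 21698 of these matched to RefSeq by gene ID). Where a gene had more than 1 probe set (999 genes), the brightest on average stood for it. Groups came from the sample titles. A model with a mean per group was fitted to 19938 genes on 16 arrays with limma 3.58.1 in R 4.3.3 (12 residual and 4.12 prior degrees of freedom), with Benjamini-Hochberg adjustment over all genes in each comparison and a threshold of 0.05. Errors are standard errors of the fit unless given as SD. The fit was tested on simulated data. The 10 genes, the 3 pathway lists and the marker lists were chosen with earlier results of these data known. All 10 genes are named, and of each other list up to 6 genes with the smallest p per comparison, some of which are given in several comparisons. The 2 genes of highest Pearson r are named for each member, leaving out gene models, clones, small RNAs and the members themselves. Promoter sequences are from RefSeq, build GRCm38.p6, and no source used here names the build behind the array. Alternatives were a second quantile normalization, median centring, a filter at the 25th percentile, probe set choices, only the groups compared, other priors, no moderation, array weights, a block for the replicate number, and leaving out each array. Leaving out the low end of the gradient, in 2 versions, and the gradient as a covariate were chosen after seeing the data. Figures were drawn in matplotlib 3.10.9 (Python 3.11.15).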

Additional observations from a re-analysis of the deposited data

Results flagged for a closer look

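Phlda3 read 11.18 on WT MG132 array 3, apart from the other arrays of its group (11.28 to 11.29). Of 40 groups of 4 arrays tested for such a value this was the 1 that passed, and chance alone flags about 1 in 20. The MG132 response differed between ATF5-KD and WT cells, by the interaction term of the fit, in Trp53inp1 (-0.41), Perp (-0.27), Aen (0.25) and Gadd45a (0.16). For Aen the MG132 and vehicle differences between the lines had opposite signs (0.13 and -0.12).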

How the results depend on the processing

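Of 50 pairs of a gene and a comparison, 40 kept their side of the threshold under every alternative run, and 0 called values changed sign. The 10 others changed in 53 of their refits, 45 by losing a call and 8 by gaining 1, and concern Zmat3 (both MG132 responses), Ccng1 (WT response and the difference of the responses), Aen, Btg2 and Mdm2 (line differences), and Gadd45a and Perp (difference of the responses). The number of the 10 genes called, 9 in the ATF5-KD response, 6 in the WT response, 7 and 6 between the lines with MG132 and with vehicle and 4 in the difference of the responses, was 8 to 9, 6 to 6, 5 to 7, 5 to 6 and 3 to 4 when single arrays were left out. Without the 4 lowest arrays of the gradient, chosen after seeing the data, it was 2 in the difference of the responses, and with WT vehicle array 1 kept and ATF5-KD MG132 array 2 left out in its place it was 3. The cause was not tested. With median centring 3 passed there, 1 higher and 2 lower, against 2 and 2. Ccng1 passed in that comparison with a trended robust prior (limma adjusted p = 0.0428). Over all genes, those higher with MG132 in ATF5-KD cells numbered 1833 with centring, 5425 with array weights and 5498 without the 4 lowest arrays, against 3276. With the replicate block the counts were 9, 6, 7, 6 and 3, with Gadd45a lost from the last (limma adjusted p = 0.0682). Arrays share a number across groups without a stated link. Same-numbered deviations correlated at -0.50 to 0.40, and for numbers 1 and 3 all were positive (0.03 to 0.40 and 0.09 to 0.28). The best match in another group had the same number in 16 of 48 cases, with 4 arrays to choose from each time. These values were not tested and do not decide whether the numbers pair the samples. As no link is stated, the main fit did not take them to. No detection calls were used, so signal over background was not assessed.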
